A study of Homo sapiens with 2 samples.

Results

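ATF4 with its dimer partners and close stress regulators was examined as a set of 10 genes, ATF4, CEBPG, CEBPB, CEBPD, DDIT3, ATF3, ATF5, NUPR1, TRIB3 and STC2, out of 13750 genes whose CPM (counts scaled to a fixed library total, with no correction for length) averaged 1 or more over both libraries. The members were listed by name after their ratios in these data had been seen, so their own values are given as a description. The poly-A RNA of HEK293T cells, a human embryonic kidney line that carries the SV40 large T antigen, was sequenced from 1 library of cells transfected with a tRF-3004b mimetic and 1 library of cells transfected with a non-targeting GL2 control RNA. Both RNAs were single strands with a 5′ phosphate, reverse transfected with Lipofectamine RNAiMax at 500 nM in total, and cells were harvested at 120 h. With 1 library per group there is no replicate check, and every statement below compares these 2 libraries.

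A tRF is a short fragment of a transfer RNA, and those from the 3′ end can be loaded into Argonaute proteins like a microRNA, which pairs with targets through bases 2 to 8, the seed. The transfected RNAs are shown 5′ to 3′ with bases 2 to 8 in capitals.
tRF-3004b: uCAAAUCUcgguggaaccucca
control RNA: cGUACGCGgaauacuucgauu
The letters complementary to the tRF-3004b seed, AGATTTG, were in none of the 3′ UTRs of the 10 members, searched in the GENCODE 29 transcript paired with the most abundant RefSeq transcript that had a pair. Of 12215 genes searched the same way, 14.9% held them. The members' 3′ UTRs had a median of 856 bases, against 1057 bases over all searched genes, and ran from 83 bases in ATF4 to 4975 bases in NUPR1. The shorter match to bases 2 to 7, GATTTG, occurred in NUPR1 and TRIB3, and in 33.8% of all searched genes.

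ATF4 is a leucine zipper transcription factor of the integrated stress response. Kinases that phosphorylate the initiation factor eIF2 lower general translation and favour translation of the ATF4 coding sequence past its upstream reading frames, so the ATF4 protein need not follow its mRNA. ATF4 binds composite C/EBP-ATF sites, usually as a dimer with a C/EBP protein, and switches on genes of amino acid supply together with ATF3, DDIT3 (CHOP), TRIB3 and other members described here.

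The tRF-3004b library held 1809193 estimated counts and the control library 19609933, a 10.8-fold difference in depth, and 5 of the 10 members had fewer than 10 counts in the tRF-3004b library. Ratios are given on the log2 scale with tRF-3004b on top, from counts scaled with TMM factors, and each 95% interval covers counting error only. RNA was measured in bulk, so fewer cells with a transcript and less of it per cell cannot be told apart. The median over all 13750 genes was -0.11. In a fibroblast list, 8 of 9 markers had higher ratios, and their summed level was 118 CPM in the tRF-3004b library and 36.4 CPM in the control library. The epithelial and blood lists, with 6 of 7 markers higher in each, summed to 38.8 and 30.96 CPM in the tRF-3004b library, against 10.7 and 3.31 CPM in the control library. KRT5 was at 0 counts in both libraries, CD79A in the tRF-3004b library and CD3E in the control library. The part of such transcripts in the members' values was not tested. Of 7 genes listed as marks of HEK293 cells, 6 had counts in the tRF-3004b library and 7 in the control library, with sums of 177 and 264 CPM. LHX1 was the gene at 0 counts in the tRF-3004b library, and had 61 in the control library.

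Of the 10 members, 8 were lower in the tRF-3004b library and 2 were higher. The share of all genes lower by any amount was not counted, but with a median of -0.11 more of them were lower than higher. In all, 6 were at least 2-fold lower, a class that held 14.3% of the 13750 genes (210 genes of it at 0 counts in the tRF-3004b library), and 2 were at least 2-fold higher, a class that held 12.3% of genes. The interval lay below 0 for 7 members and above 0 for 1, where the shares over all genes were 28.6% and 23.3%. The whole interval was beyond 2-fold lower for CEBPG and CEBPB, a class of 1.94% of genes, and beyond 2-fold higher for none, a class of 4.48%. A mean CPM of 10 or more was reached by 5 members, of which 4 were at least 2-fold lower and none higher, and by 8711 genes in all, with shares of 8.6% and 6.13%. All 10 members passed the mean CPM filter, and 8 also averaged 5 CPM or more. The median of their log2 ratios was -1.17. These shares are printed for scale, since the members were chosen on this contrast.

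**Figure D1:**
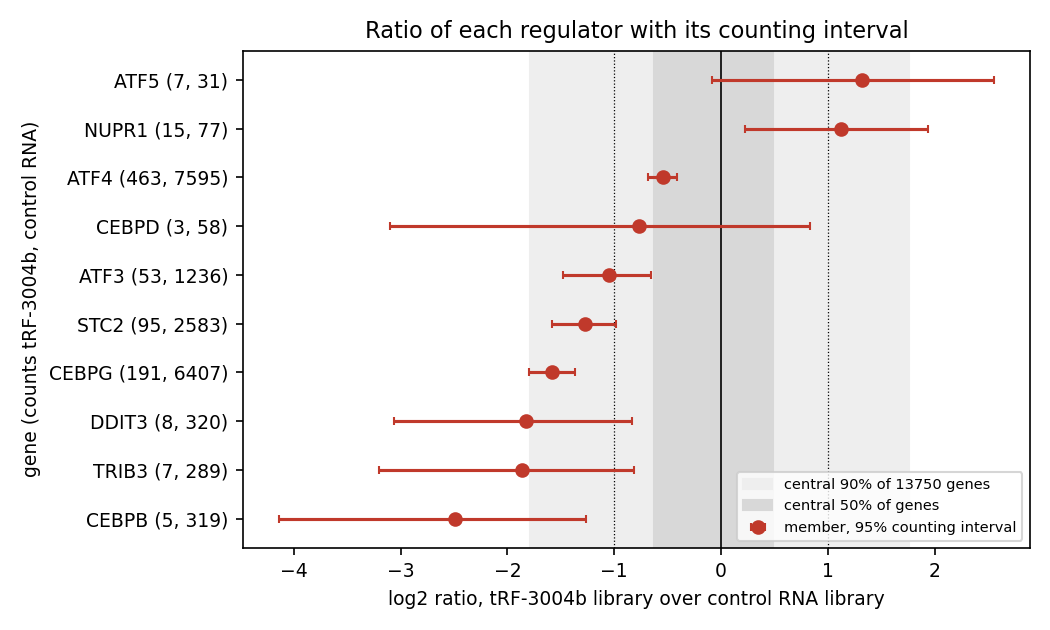
Log2 ratio of each member, with tRF-3004b over control RNA, its 95% counting interval, and with the counts of the tRF-3004b and control libraries in brackets; grey bands hold the central 90% (-1.79 to 1.75) and 50% (-0.63 to 0.48) of 13750 genes. The intervals of ATF5 and CEBPD cross 0, and CEBPB, with 5 counts in the tRF-3004b library, stands lowest at -2.49.

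In the order of levels, ATF4 was the most abundant member of both libraries, with 348 TPM (scaled like CPM but per transcript length) in the tRF-3004b library and 645 TPM in the control library. CEBPG followed with 53.3 TPM in the tRF-3004b library and 201 TPM in the control library. ATF3 had 29.02 and STC2 17.9 TPM in the tRF-3004b library, against 77.1 and 54.9 TPM in the control library. These 4 kept their order in both libraries. The 6 others lay between 2.65 TPM for CEBPD and 8.93 TPM for DDIT3 in the tRF-3004b library. In the control library they lay between 1.66 TPM for NUPR1 and 41.5 TPM for DDIT3. With 3 to 15 counts each in the tRF-3004b library, the order of these 6 there is uncertain. ATF4 made up 73.6% of the summed TPM of the members in the tRF-3004b library and 60.6% in the control library.

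**Figure D2:**
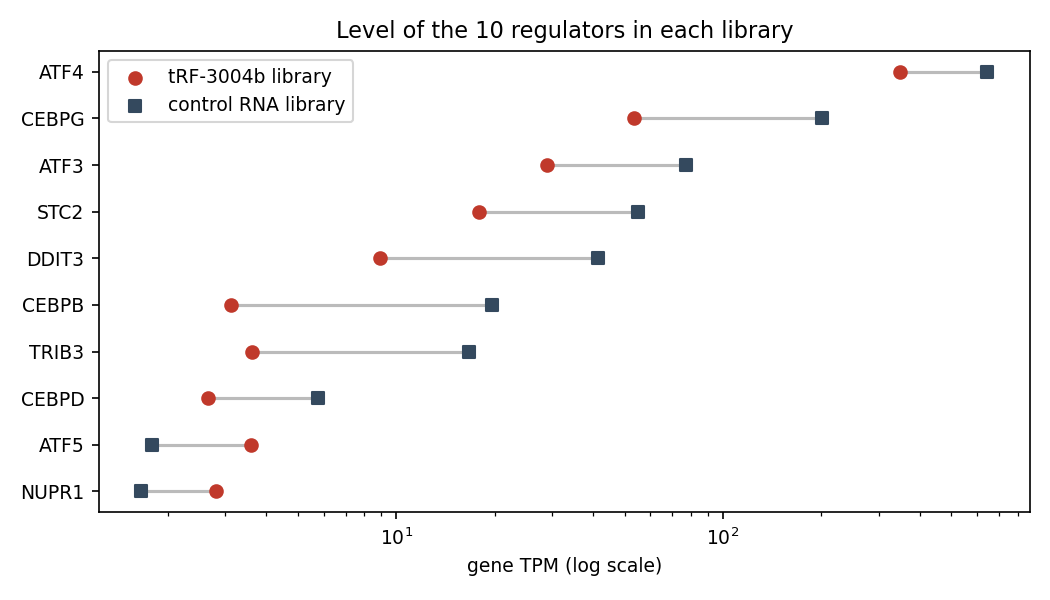
Gene TPM of the 10 members on a log axis, with the tRF-3004b library as red circles and the control library as dark squares. ATF4, at 348 TPM in the tRF-3004b library and 645 TPM in the control library, is highest in both, and ATF5 and NUPR1 are the 2 genes whose tRF-3004b value lies right of the control value.

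ATF4 itself (chromosome 22, 39520559 to 39522686, GRCh38) had 463 counts in the tRF-3004b library and 7595 in the control library. At the control level, 677 counts would have been seen at the depth of the tRF-3004b library. The log2 ratio was -0.55 (interval -0.69 to -0.41), which is 1.46-fold lower, and 28.4% of all genes had a lower ratio. With gene TPM and 1 added, the log2 ratio of ATF4 was -0.89 and the median of all genes was -0.38.

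CEBPG, a C/EBP protein without a classical activation domain that pairs with ATF4 (chromosome 19, 33373709 to 33382686), was the best-counted partner. It had 191 counts in the tRF-3004b library and 6407 in the control library. The library of tRF-3004b cells would have held 571 at the control level. The log2 ratio was -1.58 (interval -1.79 to -1.37), a 2.99-fold lower level, and 6.41% of genes were lower still. CEBPB, a C/EBP activator of inflammatory and metabolic genes (chromosome 20, 50190583 to 50192690), had 5 counts in the tRF-3004b library and 319 in the control library. The control level would have given 28.4 counts at the tRF-3004b depth. Its log2 ratio of -2.49 had an interval from -4.14 to -1.27, so it cannot be ranked against CEBPG. An antisense gene, CEBPB-AS1, shares 31-base words on the opposite strand with 10.5% of the CEBPB words, and had 14 counts in the tRF-3004b library and 88 in the control library, at a log2 ratio of 0.83 (interval -0.09 to 1.66). The strand setting of the counting is not given in the sources used here, so reads of that stretch cannot be assigned to either gene with certainty.

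CEBPD, the C/EBP protein of the acute phase response (chromosome 8, 47736913 to 47738164), had 3 counts in the tRF-3004b library and 58 in the control library. Its log2 ratio of -0.77 had an interval from -3.10 to 0.83, and a difference was not detectable at this depth. DDIT3 (chromosome 12, 57516588 to 57520517), which encodes CHOP, a C/EBP-like protein that dimerizes with ATF4 and other C/EBPs and is linked to cell death under lasting stress, had 8 counts in the tRF-3004b library and 320 in the control library. It was 3.54-fold lower at a log2 ratio of -1.82 (interval -3.06 to -0.84). ATF3 (chromosome 1, 212565407 to 212620777), a target of ATF4 that can repress stress genes, had 53 counts in the tRF-3004b library and 1236 in the control library. Its log2 ratio was -1.05 (interval -1.48 to -0.66), so the interval included values short of 2-fold.

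ATF5 and NUPR1 were the 2 members with a higher CPM in the tRF-3004b library. ATF5 (chromosome 19, 49928906 to 49933935), the closest relative of ATF4 and a factor of the mitochondrial stress response, had 7 counts in the tRF-3004b library and 31 in the control library. The control level would have given 2.76 counts at the tRF-3004b depth. The log2 ratio of 1.32 had an interval from -0.09 to 2.55, which includes 0. ATF5 also shares 31-base words on the opposite strand with NUP62, over 18.2% of its words. NUP62 had 65 counts in the tRF-3004b library and 831 in the control library, at a log2 ratio of -0.19 (interval -0.57 to 0.18).

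NUPR1 (chromosome 16, 28532708 to 28538974), a small stress-induced chromatin protein, had 15 counts in the tRF-3004b library and 77 in the control library. The control level would have given 6.86 counts at the tRF-3004b depth. Its log2 ratio was 1.12 (interval 0.22 to 1.94). The NUPR1 transcripts in the authors' files are 5291 and 5345 bases long, and the paired GENCODE transcript has a 3′ UTR of 4975 bases. In GENCODE transcripts of NUPR1, 14.3% of 31-base words also occur, on either strand, in transcripts of 4876 other genes of the files. The share of such repeated words was 0 for ATF4, CEBPG, ATF3 and STC2. How far reads from repeated words enter the NUPR1 count was not tested.

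TRIB3 and STC2 belong to the outputs of the response. TRIB3 (chromosome 20, 380760 to 397559), a pseudokinase induced by ATF4 and CHOP that feeds back on ATF4, had 7 counts in the tRF-3004b library and 289 in the control library. It was 3.65-fold lower, at a log2 ratio of -1.87 (interval -3.21 to -0.82). STC2 (chromosome 5, 173314723 to 173328414), a secreted glycoprotein named stanniocalcin-2, had 95 counts in the tRF-3004b library and 2583 in the control library. The log2 ratio of STC2 was -1.28 (interval -1.59 to -0.98).

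Transcript length moved with the ratio over the whole data. Among 10 equal bins of genes by length, the median log2 ratio was 0.55 in the bin of the shortest transcripts and -0.45 in the bin of the longest. DDIT3 lies in the shortest bin, ATF4 and CEBPD lie in the second, with a median of 0.29, and STC2 and NUPR1 lie in the eighth, with a median of -0.33. With the bin median subtracted, ATF4 stood at -0.84, DDIT3 at -2.37, NUPR1 at 1.45 and CEBPD at -1.06. STC2 stood at -0.95 and was then short of 2-fold.

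Relative to ATF4 within the same library, a measure that does not depend on how the libraries were scaled, most partners were scarcer in the tRF-3004b library. By TPM there were 6.52 ATF4 transcripts for each CEBPG transcript in the tRF-3004b library and 3.22 in the control library. The corresponding numbers were 111 and 32.9 for CEBPB, 38.9 and 15.5 for DDIT3, and 11.97 and 8.37 for ATF3. From counts, the log2 change of CEBPG relative to ATF4 was -1.03 (interval -1.29 to -0.78). It was -0.51 for ATF3 (interval -0.96 to -0.09), -0.73 for STC2 (interval -1.07 to -0.40), -1.33 for TRIB3 (interval -2.67 to -0.26) and -1.29 for DDIT3 (interval -2.52 to -0.28). NUPR1 went the other way, at 1.68 (interval 0.76 to 2.50), and so did ATF5, at 1.89 (interval 0.45 to 3.11). CEBPD, at -0.24 (interval -2.56 to 1.39), could not be placed. The measure is free of library scaling but not of the length trend. With length bin medians subtracted, STC2 stood at -0.11 relative to ATF4 (interval -0.45 to 0.21) and ATF3 at -0.31 (interval -0.76 to 0.11), so both intervals then included 0. CEBPG stood at -0.61 (interval -0.87 to -0.36).

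For ATF3, CEBPG and DDIT3, the counting intervals of some estimated transcript shares did not overlap between the libraries. For ATF4 the shares were close. The share of all genes with intervals that do not overlap was not counted, so this is a description of the members. kallisto assigns reads that fit several transcripts by an estimate, so these shares rest on the reads that reach the sequence that differs. The intervals treat the estimated counts as observed reads and leave out the error of that assignment. ATF4 was almost wholly NM_182810, with 97.4% of its counts in the tRF-3004b library (exact binomial interval 95.5% to 98.7%) and 98.5% in the control library (interval 98.3% to 98.8%).

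For ATF3, NM_001030287 was given 49.97 of the estimated counts in the tRF-3004b library and 1.74 in the control library. These are 94.3% of ATF3 in the tRF-3004b library (interval 84.3% to 98.8%) and 0.14% in the control library (interval 0.020% to 0.58%). NM_001206488 was given 0 counts in the tRF-3004b library and 1037 in the control library, 83.9% of ATF3 there (interval 81.7% to 85.9%). A share of up to 6.72% in the tRF-3004b library is allowed by that 0. NM_001674 had 3.03 estimated counts in the tRF-3004b library and 156 in the control library. In GENCODE 29, the transcript paired with NM_001030287 starts at 212565334 on chromosome 1, 43294 bases before the start of the transcript paired with NM_001206488, at 212608628. Both share the last exons, and 10.3% of the 31-base words of the distal transcript and 15.4% of those of the proximal one are not in the other. So the assignment of about 53 reads rests on a small part of the transcript.

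The background over all genes was counted for scale. Of 4110 genes with 2 or more transcripts and at least 50 counts in each library, 22.0% had a different most abundant transcript in the 2 libraries, a change of any size. In 1.97% of them, a transcript with at least 80% of the control counts had at most 5% in the tRF-3004b library, the pattern seen for ATF3. Among the 1367 of these genes with 50 to 100 counts in the tRF-3004b library, as ATF3 has, the shares were 29.3% and 3.51%.

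For CEBPG, NM_001252296 was given 77.3% of the counts in the tRF-3004b library (interval 70.9% to 83.2%) and 51.1% in the control library (interval 49.8% to 52.3%). The other transcript, NM_001806, had 43.3 estimated counts in the tRF-3004b library and 3136 in the control library. Taken alone, NM_001806 had a log2 ratio of -2.70 (interval -3.17 to -2.27) and NM_001252296 of -0.98 (interval -1.23 to -0.74). Both were lower, by different amounts. For DDIT3, with 8 counts in the tRF-3004b library, NM_004083 was given 0 counts there and 218 in the control library. The control level would have given 19.4 counts of it at the tRF-3004b depth. Its share was 0% in the tRF-3004b library (interval 0% to 36.9%) and 67.9% in the control library (interval 62.7% to 73.2%). NM_001195057 was given 4.26 estimated counts in the tRF-3004b library, 53.2% of DDIT3 (interval 15.7% to 84.3%), and 0 in the control library (interval 0% to 1.15%). The intervals of these transcripts do not overlap between the libraries, but the tRF-3004b shares rest on 8 counts. DDIT3 is also outside the all-gene background above, which needed at least 50 counts in each library. With 5 counts for CEBPB and 7 for TRIB3 in the tRF-3004b library, the share intervals of their most abundant transcripts were wide, 47.8% to 100% for NM_005194 of CEBPB, against 51.4% to 62.5% in the control library, and 59.0% to 100% for NM_001301188 of TRIB3, against 93.7% to 98.3% in the control library.

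**Figure D3:**
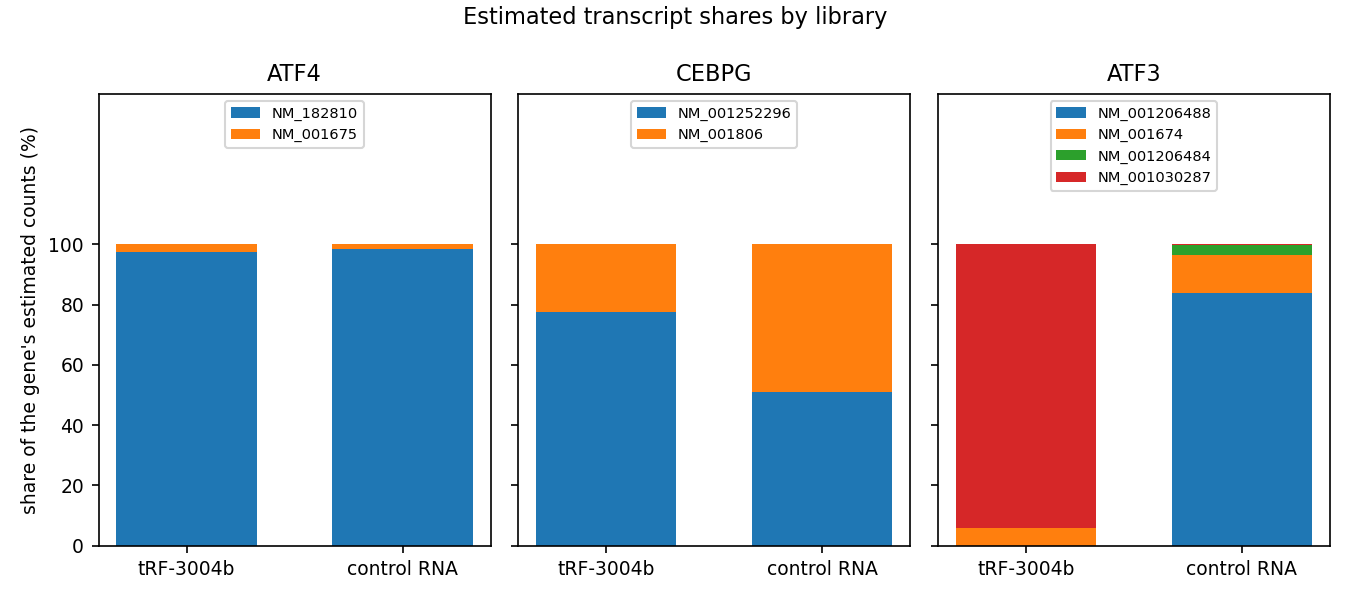
Share of each gene's estimated counts given to its RefSeq transcripts, in percent, with the tRF-3004b library left and the control library right; transcripts above 1% in either library are drawn. ATF3 is 94.3% NM_001030287 in the tRF-3004b library and 83.9% NM_001206488 in the control library, and NM_001252296 of CEBPG is 77.3% in the tRF-3004b library and 51.1% in the control library.

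The core of the C/EBP-ATF response element bound by ATF4 dimers, TGATGNAA, was searched on both strands of RefSeq promoter windows of 300 bases, 250 before to 50 after a transcript start, on GRCh38.p14. Windows were at hand for 8 members, all but CEBPD and NUPR1, and 2 of the 8, CEBPG and ATF3, held the core. Over all 27305 genes with windows the share was 4.46%. The stricter TGATGCAA was in CEBPG and in 1.08% of all genes. The ATF/CREB palindrome TGACGTCA and the endoplasmic reticulum stress element (CCAAT and CCACG with 9 bases between them) were added after the data were seen. Exact matches to them were in none of the 8 members and in 2.25% and 0.092% of genes. Near matches were not counted, and the DDIT3 windows hold CCAAT, 9 bases and CCACT, which differs from that element in its last base. The windows with the core are shown in lower case with the match in capitals, so that its place can be seen.
CEBPG, chr19:33373863-33374162, plus strand: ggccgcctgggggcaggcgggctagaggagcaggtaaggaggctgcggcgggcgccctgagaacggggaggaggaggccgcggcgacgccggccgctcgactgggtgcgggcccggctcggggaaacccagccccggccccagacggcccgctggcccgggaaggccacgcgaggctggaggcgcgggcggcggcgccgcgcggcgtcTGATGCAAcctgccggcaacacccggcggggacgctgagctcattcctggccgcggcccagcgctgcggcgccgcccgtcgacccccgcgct
ATF3, chr1:212565157-212565456, plus strand: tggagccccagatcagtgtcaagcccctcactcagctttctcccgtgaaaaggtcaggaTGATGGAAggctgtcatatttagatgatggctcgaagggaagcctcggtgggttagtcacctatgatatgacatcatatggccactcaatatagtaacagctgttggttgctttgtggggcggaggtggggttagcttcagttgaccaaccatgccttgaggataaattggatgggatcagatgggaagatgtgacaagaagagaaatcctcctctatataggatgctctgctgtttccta
The CEBPG core begins 42 bases before the downstream start of that gene, and its upstream window holds none. The ATF3 core begins 191 bases before the start at 212565407, the distal one. The other ATF3 window, 212614768 to 212615067, holds none, and the proximal start at 212608628 was not searched. A match of letters describes the window and is no measure of binding.

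Genes that ATF4 is known to act on were counted from lists that also drew on earlier results. For scale beside every list below, 14.3% of the 13750 genes were at least 2-fold lower and 12.3% at least 2-fold higher. The interval lay below 0 for 28.6% of them and above 0 for 23.3%. The share of all genes that were lower by any amount was not counted, and their median was -0.11. Of 13 enzymes of amino acid and one-carbon metabolism, 12 were lower and 7 at least 2-fold lower, with 10 intervals below 0 and a median log2 ratio of -1.07. CTH, which makes cysteine, had 33 counts in the tRF-3004b library and 2615 in the control library, at -2.82 (interval -3.36 to -2.33). PCK2, the mitochondrial PEP carboxykinase, was at -2.41 (interval -3.43 to -1.57). The upper end held ALDH18A1, a proline synthesis enzyme, at -0.02 (interval -0.19 to 0.15), and CBS, which makes cystathionine, at 1.03 (interval 0.83 to 1.23).

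Of 9 amino acid transporters 7 were lower, 5 of them at least 2-fold, with a median of -1.03. SLC1A4, a neutral amino acid carrier, was at -3.13 on 4 counts in the tRF-3004b library and 401 in the control library. SLC7A11, the cystine carrier, was at -2.29 (interval -2.55 to -2.03). SLC3A2, the shared heavy chain of several carriers, was at 0.09 (interval -0.18 to 0.34), and SLC1A5, a glutamine carrier, at 0.26 (interval -0.07 to 0.58). All 12 genes of the list of tRNA synthetases and the tRNA exporter XPOT were lower with an interval below 0, and 2 were at least 2-fold lower. They ran from CARS1 at -1.31 and AARS1 at -1.12 to YARS1 at -0.49 and NARS1 at -0.41, with a median of -0.87. With length bin medians subtracted, the median was -0.63 for this list and -0.71 for the transporters.

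The stress outputs and feedback genes held 13 genes above the filter, 11 of them lower. ADM2, a secreted peptide, had 0 counts in the tRF-3004b library and 70 in the control library, and so was at least 2.08-fold lower when 3 counts are allowed for in the tRF-3004b library. CHAC1, which degrades glutathione, and INHBE, an activin subunit, each had 0 counts in the tRF-3004b library and 51 in the control library, at least 1.51-fold lower by the same limit. With these 3 at their bounds, 5 genes of the list were at least 2-fold lower and its median was -0.81, against 7 genes and -1.09 at fitted ratios. The 2 genes above 0 were SQSTM1, an autophagy receptor, at 0.42 (interval 0.07 to 0.75), and PPP1R15A, the inducible eIF2 phosphatase subunit GADD34, at 0.40 on 12 counts in the tRF-3004b library and 102 in the control library (interval -0.60 to 1.27). FGF21 and GDF15 had 0 counts in the tRF-3004b library and 6 each in the control library, below the filter.

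Genes placed downstream of CHOP and of ATF5 were counted in the same way. Of 6 CHOP outputs 5 were lower and 2 intervals lay below 0, with a median of -0.32. The 1 higher gene was PPP1R15A, at 0.40, which is also counted among the stress outputs and the eIF2 regulators. The death receptor TNFRSF10B was at -0.72 (interval -1.09 to -0.38), and ERO1A, an oxidase of protein folding, at -0.11 (interval -0.26 to 0.05). The death gene BBC3 (PUMA) had 2 counts in the tRF-3004b library and 79 in the control library, at -1.77 (interval -4.89 to 0.09). The 12 genes of the mitochondrial stress response had a median of 0.08, with 5 intervals above 0 and 4 below. The sign of that median depended on the scale, at -0.26 with gene TPM and 1 added and 0.30 with length bin medians subtracted. The protease LONP1, at -0.85, and YME1L1, at -0.31, stood lowest. The import subunit TIMM17A, at 1.49, and the chaperonin HSPE1, at 1.72, stood highest.

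Upstream of ATF4, 4 of 6 eIF2 kinases and phosphatase regulators had an interval below 0, where the share over all genes was 28.6%. None was 2-fold lower, and their median was -0.29. The median was 0.02 with length bin medians subtracted. EIF2AK4 (GCN2), the kinase of amino acid shortage, was at -0.90 (interval -1.21 to -0.61). EIF2AK3 (PERK), the kinase of the endoplasmic reticulum, was at -0.42 (interval -0.92 to 0.04), and EIF2AK1 (HRI), the kinase linked to heme and mitochondria, at -0.24 (interval -0.40 to -0.09).

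A list of 45 other leucine zipper factors had 34 above the filter, with a median of -0.06, or 0.07 with the most abundant transcript alone. Of these, 18 were lower and 16 higher, 7 and 3 of them at least 2-fold, where the shares over all genes were 14.3% and 12.3%. JDP2, a repressor of the ATF3 gene, was lowest at -1.86 on 4 counts in the tRF-3004b library and 165 in the control library (interval -3.77 to -0.49). BACH2 was at -1.53 (interval -2.61 to -0.64). BATF3 was highest at 2.05 (8 counts in the tRF-3004b library and 21 in the control library), next to FOSL2 at 2.04 (16 in the tRF-3004b library and 43 in the control library). Among parallel stress factors, XBP1 was at -0.55, ATF6 at -0.36 and the antioxidant factor NFE2L2 at 0.29, each with an interval off 0. JUN, which can also pair with ATF4, was at -0.39 (interval -0.53 to -0.25). FOS, with 6 counts in the tRF-3004b library, and CEBPA, with 8, had intervals that included 0.

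Relatives of the members outside the leucine zipper family were few. The 3 above the filter were all lower, 2 of them at least 2-fold, with a median of -1.06, close to that of the members. TRIB2, a pseudokinase like TRIB3, was at -1.25 (interval -2.07 to -0.54), while TRIB1 was at -0.21 (interval -0.59 to 0.16). STC1, the paralog of STC2, had 3 counts in the tRF-3004b library and 71 in the control library, at -1.06 (interval -3.39 to 0.53). NUPR2 had 0 counts in both libraries.

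**Figure D4:**
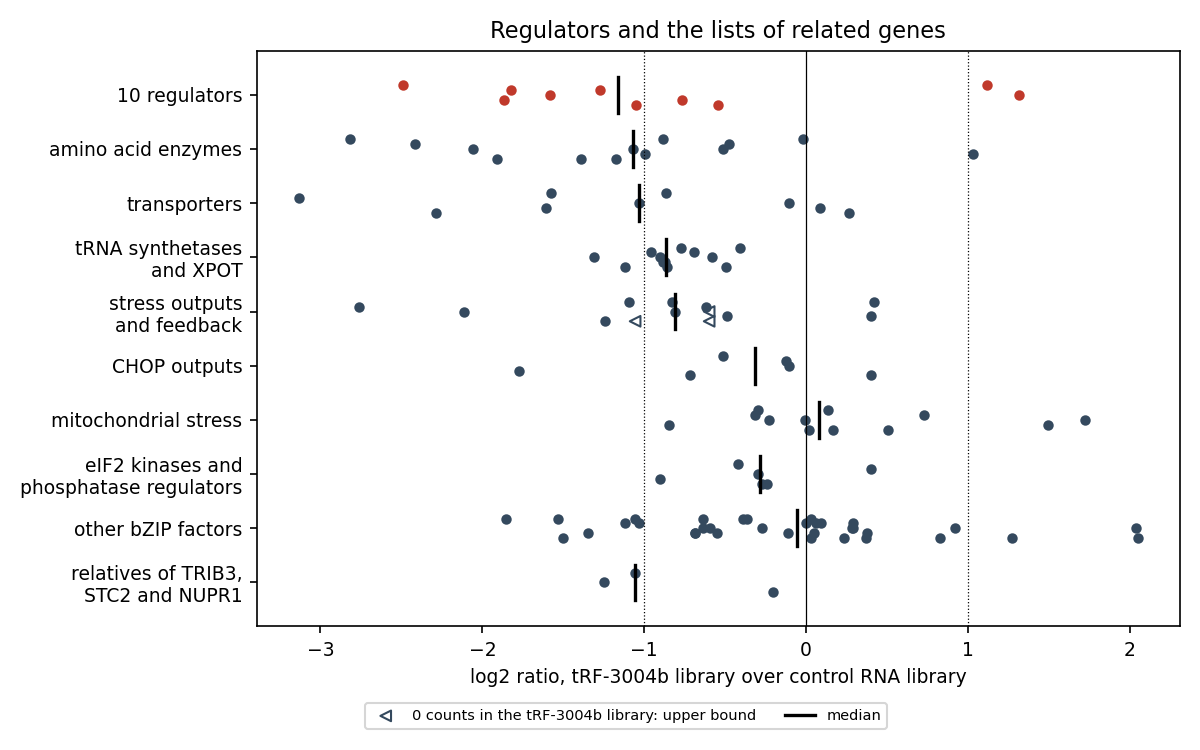
Log2 ratio, with tRF-3004b over control RNA, of each gene above the CPM filter, for the 10 members and 9 lists. Vertical strokes are medians and dotted lines mark 2-fold. Open triangles are list genes with 0 counts in the tRF-3004b library, drawn at the limit that allows 3 counts there. The members, the enzyme and transporter lists and the 3 relatives of TRIB3 and STC2 have medians between -1.17 and -1.03. The other leucine zipper factors have a median of -0.06.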

How the data were processed

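Transcripts were quantified by the authors with kallisto 0.46.1 on GRCh38, per the submitters' processing notes. The deposited tables give, per the file headers, an estimated count for each RefSeq transcript, a TPM value scaled over effective length, and the length and effective length in bases. Which annotation release, read trimming and strandedness option were used was not given in the sources used here. Per the labels' protocols, RNA was poly-A selected and made into directional libraries.

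The 70866 transcripts were named with a RefSeq table on GRCh38.p14 (70245) and GENCODE 29 (293). The 328 unnamed ones, with 0.0713% of the tRF-3004b counts and 0.0723% of the control counts, were left out. Estimated counts were summed per symbol and rounded, and TPM values were summed. Libraries were scaled with edgeR 4.0.16 TMM factors (0.983 for tRF-3004b and 1.02 for control) in R 4.3.3, without its test, since there is 1 library per group. To form the log2 ratio, 0.5 counts were added to each library at equal size. A 95% Clopper-Pearson interval, exact and conditional on the summed counts, goes with it, and ratios to ATF4 carry the exact conditional interval of an odds ratio. Reads had no molecular identifiers, so intervals and the floor of 3 counts cover counting error alone.

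The log2 ratio and its interval were run on simulated counts that held counting error alone, so that check does not reach other kinds of error. The members, lists and motifs were chosen with earlier results of these data known. Each list names its 2 highest and 2 lowest genes above the filter, plus 7 leucine zipper factors by name, among them JDP2, which is also the lowest. Further list genes, such as INHBE, FGF21 and GDF15, were named after their values were seen. With 2 libraries a pattern is a single ratio, so no gene is named for a pattern like that of a member. The alternatives tried were DESeq2 1.42.0 size factors, total counts, 5 added counts, gene TPM with 1 added, the most abundant transcript alone, subtraction of length bin medians, a mean CPM of at least 5 and no filter. Setting genes at 0 counts to their bound, and the length correction of ratios to ATF4, were added after seeing the data. Python 3.11.15, scipy 1.17.1 and matplotlib 3.10.9 were used.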

Additional observations from a re-analysis of the deposited data

How the results depend on the processing

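No paired analysis was possible because each group has 1 library. The number of members at least 2-fold lower was 6 under every alternative except the most abundant transcript alone. There it was 5, since CEBPG stood at -0.98. The 6 were not always the same genes. With length bin medians subtracted, STC2 left the class at -0.95 and CEBPD, with 3 counts in the tRF-3004b library, entered it at -1.06. The median of the members' log2 ratios ran from -1.47 (gene TPM with 1 added) to -1.10 (length bin medians subtracted). The number at least 2-fold higher was 2, but 0 with gene TPM and 1 added, where ATF5 was at 0.72 and NUPR1 at 0.51, and 1 at a mean CPM of at least 5, which leaves out ATF5. With gene TPM, the tRNA synthetase list had a median of -1.21 with 9 genes at least 2-fold lower, and 1 with length bin medians subtracted. The CHOP outputs had 2 such genes with gene TPM or the most abundant transcript alone, and 0 at a mean CPM of at least 5. The mitochondrial stress list and the eIF2 regulators had 1 each with gene TPM. The relatives of TRIB3, STC2 and NUPR1 had 1 with 5 added counts, gene TPM, length bin medians subtracted or a mean CPM of at least 5. The stress outputs had 4 at a mean CPM of at least 5, and the other leucine zipper factors had 11 with no filter. By TPM, NM_182810 was 99.01% of ATF4 in the control library. With the most abundant transcript alone, NM_004083 of DDIT3 (0 counts in the tRF-3004b library) had a fitted log2 ratio of -7.90 and NM_001206488 of ATF3 (0 counts) one of -10.14, which depend on the added count. The stricter motif TGATGCAA was in 1 member, and the match to bases 2 to 7 in 2. The cause of these differences was not tested, beyond the genes left out by a filter. The 10.8-fold lower depth of the tRF-3004b library limits CEBPB, CEBPD, DDIT3, TRIB3 and ATF5, each with under 10 counts there.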
